A study of Rattus norvegicus with 9 samples.

Results

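The genes Slc16a1, Acsf2, Acss1, Acsm5, Acads, Bdh1, Oxct1 and Acat1, which serve butyrate and ketone body metabolism, were followed in the left ventricle of the rat. They were taken by gene name from a list of short-chain fatty acid and ketone genes, not by their measured values, and are 8 of 22608 gene names, with 15 transcript lines. The RNA-seq libraries came from hearts of Sprague-Dawley rats, labelled as 8 weeks old plus 28 days. Treatment was with saline, with angiotensin II (Ang II) or with Ang II+NaBu, and each of these 3 groups had 3 libraries. Angiotensin II constricts vessels and, when infused in rodents, is used as a model of hypertension with cardiac fibrosis; NaBu is sodium butyrate, the salt of a short-chain fatty acid made by gut bacteria. All groups share strain, tissue and labelled age, and no group received NaBu without Ang II. The labels give no dose or route and do not say whether a group's libraries are different rats, so p-values measure the spread between these libraries, which may be technical.

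Butyrate enters cells through monocarboxylate carriers, is joined to coenzyme A by acyl-CoA synthetases inside mitochondria, and is broken down by a short round of beta-oxidation. The ketone body beta-hydroxybutyrate follows a parallel route, in which it is oxidised to acetoacetate, given coenzyme A from succinyl-CoA and split into acetyl-CoA. The heart is among the main users of ketone bodies, while the liver makes most of them. Butyrate and beta-hydroxybutyrate are both also known as inhibitors of histone deacetylases.

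Promoter sequences are shown for the carrier, for the last enzymes of the ketone route and for Acsm5, which was nearly absent. Levels of all 7 measured members followed each other across the libraries, not only of those printed. The sequences are the 250 bases before the annotated start, in the direction of the gene, from RefSeq on build GRCr8. Its annotation is not that of the deposited tables. Capitals mark the GC box, with the letters GGGCGG on either strand, the sequence bound by Sp1-type factors. A promoter was found for 6 of the 8 members, and Acsf2 and Acss1 had no entry.
Slc16a1, chr2:194812410-194812659, plus strand: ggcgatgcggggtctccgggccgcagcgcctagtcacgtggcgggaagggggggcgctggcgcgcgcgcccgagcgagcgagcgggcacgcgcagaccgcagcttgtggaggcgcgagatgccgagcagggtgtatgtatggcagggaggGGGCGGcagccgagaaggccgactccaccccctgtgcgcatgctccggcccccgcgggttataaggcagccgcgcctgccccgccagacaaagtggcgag
Oxct1, chr2:54963714-54963963, plus strand: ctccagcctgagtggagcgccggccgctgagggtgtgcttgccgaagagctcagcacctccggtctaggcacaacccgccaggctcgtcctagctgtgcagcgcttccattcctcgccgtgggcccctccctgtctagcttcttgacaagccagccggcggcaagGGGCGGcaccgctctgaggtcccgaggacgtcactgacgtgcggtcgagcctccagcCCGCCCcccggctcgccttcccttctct
Acat1, chr8:62905043-62905292, minus strand: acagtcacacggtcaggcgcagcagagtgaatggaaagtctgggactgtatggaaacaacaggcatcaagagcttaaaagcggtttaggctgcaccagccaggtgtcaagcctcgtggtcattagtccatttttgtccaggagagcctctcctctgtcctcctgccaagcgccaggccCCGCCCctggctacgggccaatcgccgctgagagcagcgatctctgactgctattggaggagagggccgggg
Acsm5, chr1:183302259-183302508, plus strand: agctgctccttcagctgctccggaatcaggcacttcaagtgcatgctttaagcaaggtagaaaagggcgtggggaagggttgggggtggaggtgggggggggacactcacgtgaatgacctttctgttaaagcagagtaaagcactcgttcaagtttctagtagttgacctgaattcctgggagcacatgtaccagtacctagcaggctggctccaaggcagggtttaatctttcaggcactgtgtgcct

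The GC box was present in 5 of the 6 member promoters. In Oxct1 the boxes began 85 bases before the start on the gene strand and 28 bases before it on the other strand, in Slc16a1 a box began 100 bases before the start, and in Acat1 72 bases before it. Acads and Bdh1, not printed, had a box 65 and 55 bases before the start, and Acsm5 had none. The box occurred in 30.5% of all 33469 promoters and in 53.9% of the 12444 promoters of genes tested here, so the members' share is described and not tested. Of the other motifs searched on both strands, the CCAAT box (CCAAT) was in Acads and Acat1 and in 34.3% of promoters of tested genes. The nuclear receptor hexamer AGGTCA was in Acsm5 alone among the 6 and in 11.3% of those promoters. The E-box CACGTG was in Slc16a1 and Acsm5 and in 7.45% of them, and neither TGACGTCA (2.59%) nor TATAAA (7.16%) was in a member promoter. No motif contains another, and a match marks letters in the window, not a bound site.

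Libraries held 29284780 to 49865446 estimated counts, and 15467 genes passed the filter on low counts, 7 of the 8 members among them. Ventricular cardiomyocyte transcripts were abundant in every library, with 8 of 8 markers found and a summed level of 46251 to 76567 CPM (counts relative to the library total, with totals scaled by the trimmed mean of M-values, TMM). Saline replicate 2 stood apart. Its summed ventricular markers, at 46251 CPM, were the lowest of the 9 libraries, and its 7 atrial markers summed to 5934 CPM against 53.9 to 303.0 CPM in the other libraries. It also held the highest sums of fibroblast (4229 CPM), smooth muscle (840.0 CPM), endothelial (1610 CPM), macrophage (226.6 CPM) and adipocyte (30.1 CPM) markers. The endothelial sum rested on Vwf, at 742.5 CPM against 269.7 to 362.7 CPM in the other libraries. Kdr, Cdh5, Tie1 and Esam were lower than in saline replicates 1 and 3, and Pecam1 was higher. Saline replicate 3 was second highest in each atrial marker but Dkk3, with Myl7 at 27.2 CPM and Bmp10 at 22.2 CPM. The remaining libraries held at most 3.98 CPM of Myl7 and 0.693 CPM of Bmp10. Ribosomal RNA was also highest in saline replicate 3, at 18.81% of counts. In the comparisons against saline, members and list medians are given with and without saline replicate 2, and saline replicate 3 stays in both. In whole-tissue RNA, fewer cells of a type and less RNA per cell cannot be told apart.

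Across the groups, 7 of the 8 genes averaged highest with Ang II+NaBu, then with Ang II, and lowest with saline, but without saline replicate 2 Ang II averaged below saline in 6 of the 7. Acsf2, an acyl-CoA synthetase of mitochondria, was the only member called by edgeR with all 9 libraries in the fit, and it was higher with Ang II+NaBu than with either other group. Fits without saline replicate 2, or with only the 2 groups, called 5 members for Ang II+NaBu against Ang II. Of all genes, 6.16% and 7.12% rose in these 2 fits, against 0.647% with all 9 libraries. Saline and Ang II libraries overlapped for all 7 genes. Levels are compared for each gene across libraries and not between genes, because the tables give no transcript length.

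Slc16a1 encodes MCT1, the proton-coupled carrier of lactate, pyruvate, ketone bodies and butyrate. It was at 335.2, 139.4 and 297.3 CPM in saline replicates 1, 2 and 3. With Ang II it was at 269.0, 324.4 and 314.4 CPM, and with Ang II+NaBu at 393.4, 364.8 and 453.3 CPM in replicates 2, 4 and 6. Every Ang II+NaBu library lay above every library of the other groups, and saline replicate 2 lay below all others. The log2 difference between Ang II+NaBu and Ang II was 0.42 (SE 0.262, edgeR adjusted p = 0.381), which did not pass the test.

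Acsf2 is a member of the acyl-CoA synthetase family that activates medium-chain fatty acids. It was at 173.9, 130.4 and 197.9 CPM with saline and at 168.3, 202.6 and 180.8 CPM with Ang II. The Ang II+NaBu libraries were at 327.1, 279.2 and 316.0 CPM, all above the other 6. Acsf2 rose 1.67-fold against Ang II (log2 0.74, SE 0.151, edgeR adjusted p = 0.0447) and 1.84-fold against saline (log2 0.88, SE 0.151, edgeR adjusted p = 0.0202). Its coefficient of variation within a group was 20.4% with saline, 9.43% with Ang II and 8.15% with Ang II+NaBu.

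Acss1, the acetyl-CoA synthetase of mitochondria, was at 303.5, 212.9 and 264.7 CPM with saline, at 264.2, 343.1 and 332.4 CPM with Ang II, and at 339.5, 346.9 and 376.2 CPM with Ang II+NaBu. The Ang II+NaBu libraries were above all saline libraries but overlapped those of Ang II, where replicate 2 reached 343.1 CPM. It had the smallest difference of the 7 genes between Ang II+NaBu and Ang II (log2 0.18, SE 0.146, edgeR adjusted p = 0.514) and the largest between Ang II and saline (0.27, SE 0.146, edgeR adjusted p = 0.894), and neither passed the test.

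Acsm5, of a family of medium-chain acyl-CoA synthetases, was listed at 0 in 8 of the 9 libraries across its 4 transcripts. The exception was saline replicate 2 with 14 estimated counts, or 0.372 CPM. Among low transcript values, 8 and 12 were each more frequent than the value before in 9 of 9 libraries (3175 values of 8 against 2551 of 7 in all, and 2393 of 12 against 1994 of 11). Values of 1 (5052) and 2 (3996) were more frequent still, which a step of 4 alone would not give. Taking a fragment as about 4 estimated counts is therefore an assumption, and the limit rests on it. A library at 0 then allows up to 3 fragments, or 12 estimated counts, which is 0.241 to 0.41 CPM on unscaled totals, for counting error only. The single value is close to that limit and in the library that stood apart, and no difference between groups can be read from it.

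Acads, short-chain acyl-CoA dehydrogenase, takes the first step in the oxidation of butyryl-CoA. It was at 174.5, 92.4 and 174.1 CPM with saline, at 127.5, 164.2 and 182.1 CPM with Ang II, and at 176.4, 199.8 and 212.8 CPM with Ang II+NaBu. The Ang II+NaBu libraries overlapped the Ang II libraries and lay just above the saline ones, at 176.4 against 174.5 CPM at the nearest. Neither comparison passed the test, and the value against Ang II was 0.31 on the log2 scale (SE 0.227, edgeR adjusted p = 0.448).

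Bdh1 interconverts beta-hydroxybutyrate and acetoacetate, and of the 7 genes it varied most among saline libraries, at 81.1, 24.5 and 93.2 CPM (coefficient of variation 55.3%). It was at 64.4, 72.8 and 72.7 CPM with Ang II and at 100, 83.4 and 108.7 CPM with Ang II+NaBu. Ang II+NaBu lay above Ang II in all libraries and overlapped saline, where replicate 3 was above the lowest Ang II+NaBu library. Saline replicate 2 held 0.281 of the mean of the other 2 saline libraries, and the difference between Ang II+NaBu and Ang II was 0.48 (SE 0.367, edgeR adjusted p = 0.482).

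Oxct1 encodes the succinyl-CoA transferase that activates acetoacetate, the step that commits ketone bodies to use outside the liver. It was at 1793, 901.4 and 1878 CPM with saline and at 1588, 1712 and 1719 CPM with Ang II, where the coefficient of variation was 4.42%. With Ang II+NaBu it was at 2583, 2185 and 2646 CPM, above all 6 other libraries. Its log2 differences were 0.56 against Ang II (SE 0.231, unadjusted p = 0.0348, edgeR adjusted p = 0.19) and 0.70 against saline (SE 0.231, unadjusted p = 0.0129, edgeR adjusted p = 0.101).

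Acat1, the mitochondrial thiolase that splits acetoacetyl-CoA into acetyl-CoA, was at 503.1, 352.2 and 563.6 CPM with saline, at 455.1, 511.5 and 512.4 CPM with Ang II, and at 731.6, 611.0 and 704.0 CPM with Ang II+NaBu. The Ang II+NaBu libraries were again above all others. The log2 differences were 0.47 (SE 0.162, edgeR adjusted p = 0.136) against Ang II and 0.53 (SE 0.163, edgeR adjusted p = 0.083) against saline, past an unadjusted p of 0.05 but not the adjusted threshold.

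**Figure D1:**
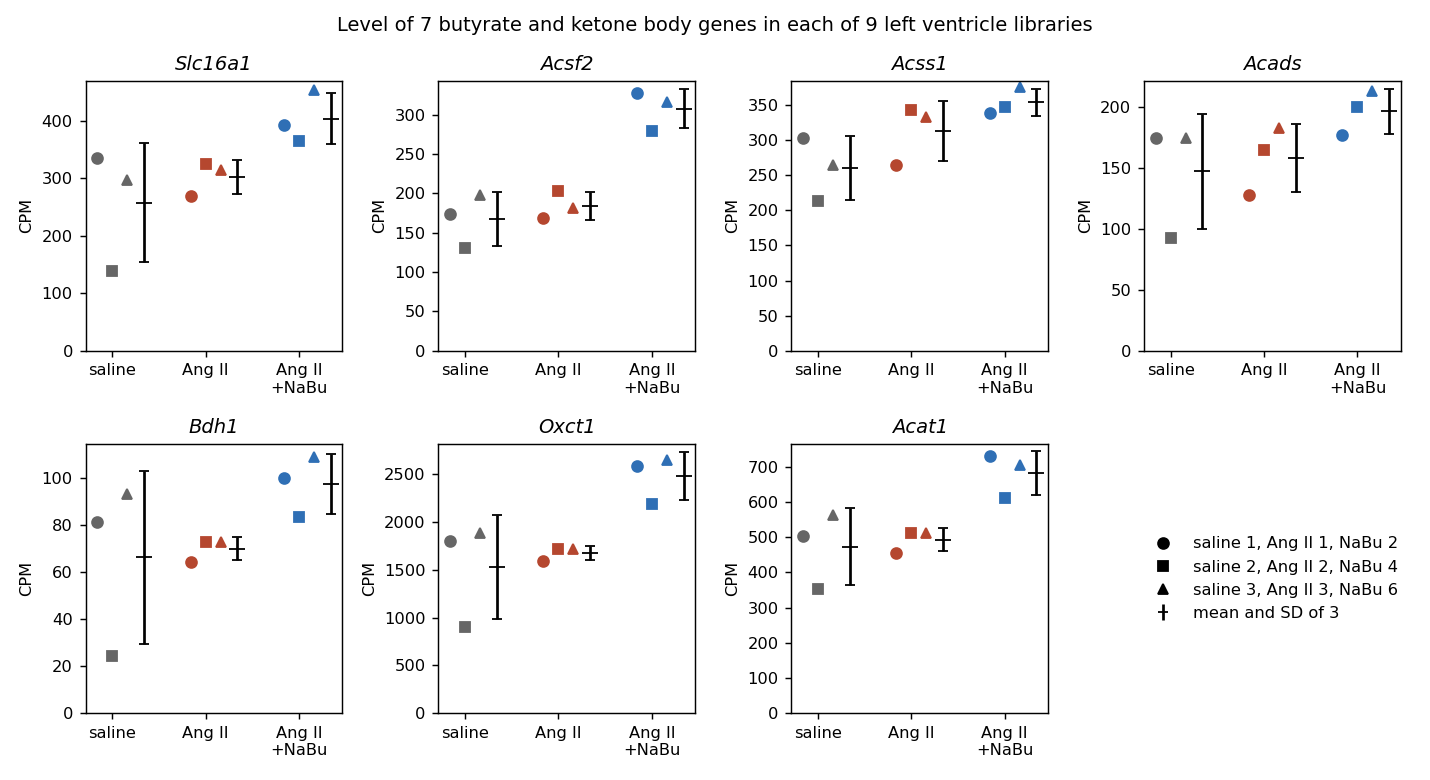
Level in CPM (vertical axes, from 0) of 7 member genes in the 3 libraries of each group, with the mean and SD of each group beside the points; symbols only name libraries and pair none. Saline replicate 2 (grey square) is the lowest point in every panel, and for Slc16a1, Acsf2, Oxct1 and Acat1 the 3 Ang II+NaBu points lie above the other 6.

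Ang II was set against saline to see how these genes stood with the hormone alone. No member was called, and over all genes edgeR called 0% as higher. At an unadjusted p under 0.05 there were 0 members and 918 of all 15467 genes, and DESeq2 also called 0 members. All 7 members averaged higher with Ang II, with log2 differences from 0.06 (Acat1) to 0.27 (Acss1) and a median of 0.13, where the median of all genes was 0.00. For 0 of the 7 did all Ang II libraries lie above all saline libraries, against 4.94% of all genes. Without saline replicate 2 the direction turned in 6 of the 7, and the median became -0.12. Bdh1 was then at -0.32 (SE 0.124, edgeR adjusted p = 0.557), Oxct1 at -0.14 (SE 0.0985), Acads at -0.14, Acat1 at -0.12, Slc16a1 at -0.07 and Acsf2 at -0.02, while Acss1 was at 0.14 (SE 0.13). Only Acss1 thus kept its direction between Ang II and saline without that library, and it did not pass the test.

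Ang II+NaBu and Ang II differ by the presence of butyrate on top of the hormone. All 7 members averaged higher with NaBu, by 0.18 (Acss1) to 0.74 (Acsf2) on the log2 scale, with a median of 0.47 against -0.02 for all genes, of which 47.3% averaged higher. In 5 of the 7 genes (Slc16a1, Acsf2, Bdh1, Oxct1 and Acat1) every Ang II+NaBu library lay above every Ang II library, a pattern found in 18.1% of all genes. edgeR called 1 member, Acsf2, where 0.647% of all genes rose. At an unadjusted p under 0.05 there were 3 members, Acsf2, Oxct1 and Acat1, beside 22.4% of all genes in either direction.

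The saline libraries enter that test through the shared estimate of the spread. Without saline replicate 2, edgeR called 5 members as higher with NaBu, where 6.16% of all genes rose. These were Acsf2 (0.76, SE 0.103, adjusted p = 0.0126), Oxct1 (0.58, SE 0.0886, adjusted p = 0.0148), Acat1 (0.49, SE 0.0969, adjusted p = 0.0201), Bdh1 (0.49, SE 0.112, adjusted p = 0.0285) and Slc16a1 (0.43, SE 0.112, adjusted p = 0.041). The differences of these 5 genes moved by at most 0.02, and the standard errors became smaller, from 0.367 to 0.112 for Bdh1. With only the Ang II and Ang II+NaBu libraries in the fit the same 5 genes were called, with 7.12% of all genes rising. Acss1 and Acads passed in neither fit. DESeq2 called Acsf2 and Acat1, with 7.18% of all genes rising. Acsf2 was not called when any single Ang II or Ang II+NaBu library, or saline replicate 1, was left out, nor with total count scaling or with the highest transcript per gene. Those fits called few genes of any kind. Of all genes, 1 to 3 rose without a single Ang II or Ang II+NaBu library and 10 without saline replicate 1. Total count scaling and the highest transcript each gave 2, against 100 with gene sums, TMM and all 9 libraries. The adjusted p of Acsf2 ranged from 0.000168 (DESeq2) to 0.201 over 19 alternatives, with 10 of them calling it and a log2 difference of 0.63 to 0.84.

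**Figure D2:**
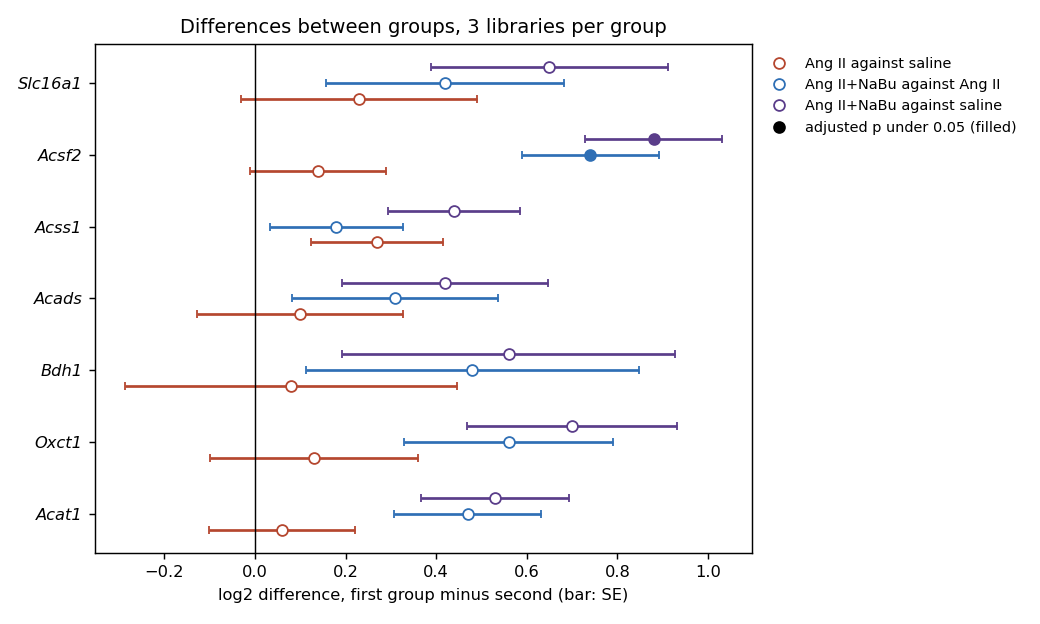
Log2 difference (horizontal axis) of each of 7 member genes in the 3 comparisons, with bars for the SE from edgeR; filled points have an adjusted p under 0.05. Only the Acsf2 points for Ang II+NaBu are filled, at 0.74 against Ang II and 0.88 against saline, and all 7 genes lie above 0 in each comparison with all 9 libraries.

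Ang II+NaBu was also set against saline, which shares the Ang II+NaBu libraries with the comparison before and is not independent of it. All 7 members averaged higher, by 0.42 (Acads) to 0.88 (Acsf2), with a median of 0.56 against -0.05 for all genes. Ribosomal RNA took 10.21% to 18.81% of counts with saline and 7.99% to 9.83% with Ang II+NaBu, and macrophage markers summed to 157.3 to 226.6 against 138.8 to 156.4 CPM, without overlap in either; their part in the differences was not tested. edgeR called Acsf2 alone, where 3.01% of all genes rose, and 5 members had an unadjusted p under 0.05, beside 24.6% of all genes in either direction. In 6 of the 7, all but Bdh1, the Ang II+NaBu libraries lay above every saline library, against 14.5% of all genes. Saline replicate 2 was the lowest library for all 7, so leaving it out cannot change that count. Without that library the median was 0.37, and Acsf2 (0.74, SE 0.117, adjusted p = 0.0217) and Oxct1 (0.44, SE 0.1, adjusted p = 0.049) were called by edgeR, with 1.86% of all genes rising. The values of Slc16a1 went from 0.65 to 0.37, of Acads from 0.42 to 0.19 and of Bdh1 from 0.56 to 0.17. For Acat1 the value went from 0.53 to 0.37 and for Acss1 from 0.44 to 0.33. DESeq2 called 5 members, Slc16a1, Acsf2, Acss1, Oxct1 and Acat1, with 9.51% of all genes rising, and edgeR with only these 2 groups called 0, with 0.0331% rising. Acsf2 was not called in edgeR fits without any single Ang II+NaBu library, with only these 2 groups or with the highest transcript per gene. Of all genes, 3 to 68 rose without a single Ang II+NaBu library, 5 with only these 2 groups and 16 with the highest transcript. With gene sums, TMM and all 9 libraries 465 rose. Acsf2 was called in 14 of 19 alternatives.

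**Figure D3:**
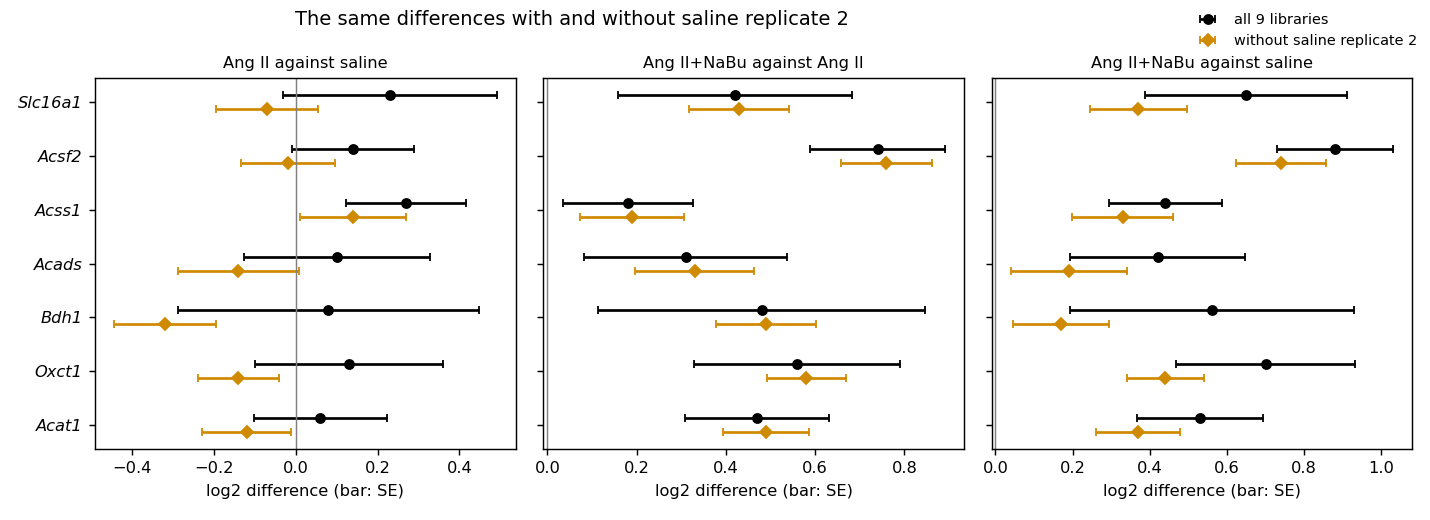
Log2 differences with their SE (horizontal axes) for 7 member genes in the 3 comparisons, with all 9 libraries (black circles) and without saline replicate 2 (orange diamonds). Between Ang II and saline, 6 of 7 diamonds lie below 0; between Ang II+NaBu and Ang II, circles and diamonds nearly coincide and the bars of the diamonds are shorter.

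The summed ventricular cardiomyocyte markers were also higher with Ang II+NaBu than with Ang II. Of the 8 markers 7 averaged higher, and 5 (Myl2, Myl3, Tnni3, Actc1 and Ryr2) did not overlap, while Tnnt2 averaged lower and Myh6 and Myh7 overlapped. The summed level of the 8 markers was 67021 to 74886 CPM with Ang II+NaBu, 62254 to 63687 CPM with Ang II and 46251 to 76567 CPM with saline. Myh6 held the largest part of that sum, at 23629 to 27078 CPM with Ang II+NaBu and 22252 to 25314 CPM with Ang II. Myl3 was at 3256 to 3818 against 1963 to 2458 CPM and Actc1 at 10465 to 12444 against 6086 to 8128 CPM. Between these groups the Myh6 ranges overlapped and the Actc1 ranges did not, so the difference in the sum does not follow Myh6 alone. The 5 markers that did not overlap are part of the sum to which members were scaled. Set relative to the summed level, a scale chosen after the data were seen, the same 5 members lay higher in every Ang II+NaBu library than in every Ang II library. Acsf2 was at 42.8 ± 1.03 CPM per 10000 CPM of marker with Ang II+NaBu and at 29.1 ± 2.45 with Ang II (SD, n = 3), a ratio of 1.47 between the group means. The ratio was 1.3 for Oxct1, 1.22 for Acat1 and Bdh1, 1.17 for Slc16a1, 1.1 for Acads and 0.997 for Acss1. Endothelial markers were lower, at 1107 to 1296 CPM with Ang II+NaBu and 1309 to 1506 CPM with Ang II. Erythroid markers were at 348.0 to 495.0 against 498.9 to 890.1 CPM, and ribosomal RNA took 7.99% to 9.83% of counts with Ang II+NaBu and 9.08% to 12.24% with Ang II. Smooth muscle markers averaged lower but overlapped, at 251.7 to 353.3 against 340.6 to 434.5 CPM. Macrophage sums were at 138.8 to 156.4 against 129.6 to 147.4 CPM and atrial sums at 97.9 to 194.5 against 53.9 to 141.1 CPM, both overlapping. Fibroblast sums overlapped, at 2442 to 3053 against 2440 to 2583 CPM, as did adipocyte sums, at 4.04 to 8.67 against 4.57 to 6.56 CPM. The part of cardiomyocyte content, of these other cell type markers and of ribosomal RNA in the members' differences was not tested.

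The 7 measured members followed each other across libraries. Over the 21 pairs, Pearson's r of log2(CPM + 1) across the 9 libraries had a median of 0.905 and ran from 0.77 (Acsf2 and Acads) to 0.978 (Oxct1 and Acat1). All pairs share the same libraries, with saline replicate 2 low and the Ang II+NaBu libraries high, so these values describe the libraries and are not a test. Among 10136 other genes with a mean of at least 5 CPM, the patterns most like that of Acsf2 were Pdha1 (r = 0.997), Eif3j (0.994) and Pdp1 (0.991). For Oxct1 they were Klhl31 (0.997), Grsf1 (0.995) and Dnajc28 (0.992), and for Acat1 Perm1 (0.993), Tuba4a (0.993) and Ecsit (0.992). Acads was matched by Atp5a1 (0.996), Map2k3 (0.996) and Echs1 (0.993), and Bdh1 by Pdhx (0.99), Uqcr11 (0.988) and Asb2 (0.987). Slc16a1 was matched by Eif2b5 (0.991), Nme2 (0.985) and Rpl3l (0.981), and Acss1 by Phb (0.98), Clpx (0.98) and Memo1 (0.978).

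Several members were deposited as more than 1 transcript, whose estimated counts share reads and cannot be assigned with certainty. Slc16a1 had NM_012716.2 and the predicted XM_017590636.1, and the latter took 24.1% ± 0.00985 of the gene's counts with Ang II+NaBu, 27% ± 1.86 with Ang II and 25.7% ± 3.27 with saline (SD, n = 3). Each Ang II library was thus above each Ang II+NaBu library in that share (25% at the lowest against 24.1% at the highest), while saline overlapped both. In Bdh1 the predicted XM_006248478.3 took 28.4% ± 0.592 with Ang II+NaBu, 26% ± 1.41 with Ang II and 24.5% ± 1.91 with saline. Its lowest Ang II+NaBu share, 27.7%, lay above the highest share elsewhere, 26.9%. How often shares separate in this way among all genes with several transcripts was not counted, and the shares were not tested. The predicted Acss1 transcript XM_008762307.2 was minor, at 0.443% to 5.84% of the gene, and was the only member transcript that averaged lower with Ang II+NaBu than with Ang II (log2 -0.28, SE 0.637) and than with saline (-0.66, SE 0.639). Of the 10 member transcripts that passed the filter, edgeR called 0 in each comparison. Over all 31914 transcripts it called 0.0125% for Ang II against saline, 0.0157% for Ang II+NaBu against Ang II and 0.0689% for Ang II+NaBu against saline. Member transcripts with an unadjusted p under 0.05 numbered 0, 2 and 5, beside 1354, 3003 and 3356 of all 31914, and the smallest adjusted p of a member transcript was 0.14, for Acsf2 (NM_001034951.1) between Ang II+NaBu and saline. DESeq2 was not run on transcripts.

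Other genes of the pathways were read from 4 lists of 48 genes, of which 43 were in the tables and 36 passed the filter. Between Ang II and saline, 0 of the 36 were called. Between Ang II+NaBu and Ang II, 0 were called either, and in 20 of the 36 every Ang II+NaBu library lay above every Ang II library, against 18.1% of all genes. Between Ang II+NaBu and saline, 5 rose and 0 fell, where 3.01% of all genes rose. Without saline replicate 2, edgeR called 10 of the 36 for Ang II+NaBu against Ang II, all higher, with 6.16% of all genes rising, and 1 (Etfdh) for Ang II+NaBu against saline, with 1.86% rising.

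Of the enzymes around acyl-CoA oxidation and propionate use, all 17 averaged higher with Ang II+NaBu than with Ang II. Their median difference was 0.34 on the log2 scale and the groups did not overlap in 14, against 18.1% of all genes above without overlap. With all libraries 0 passed the edgeR test, and without saline replicate 2 there were 7, where 6.16% of all genes rose. The extremes were Etfdh, which passes electrons from acyl-CoA dehydrogenases to ubiquinone (0.74, SE 0.201, adjusted p = 0.0827), and Mut, methylmalonyl-CoA mutase (0.54, SE 0.156), against Pccb (0.20, SE 0.0975) and Etfb (0.24, SE 0.204), subunits of propionyl-CoA carboxylase and of electron transfer flavoprotein. Etfdh was at 601.3, 534.5 and 588.7 CPM with Ang II+NaBu and at 295.7, 375.4 and 363.2 CPM with Ang II. Against saline, Etfdh (0.88, SE 0.202, adjusted p = 0.0382) and Acadvl, very long-chain acyl-CoA dehydrogenase (0.59, SE 0.138, adjusted p = 0.0411), rose, and the median of the 17 was 0.46. Without saline replicate 2 the median was 0.32, Etfdh was at 0.67 (adjusted p = 0.0334) and Acadvl, at 0.47, did not pass (adjusted p = 0.0511). Pccb (0.33) and Etfb (0.21) were again the lowest, with Hadha, a subunit of the mitochondrial trifunctional protein, next to the top at 0.61 (adjusted p = 0.0502). Between Ang II and saline the median was 0.12, from Acad8 (-0.06) and Etfb (-0.02) to Hadh (0.17) and Acadvl (0.25), and without saline replicate 2 it was -0.08.

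Among acyl-CoA synthetases and thioesterases 7 of 10 were tested, and 4 of the 7 averaged higher with Ang II+NaBu than with Ang II (median 0.17), with 0 called. Acot9, a mitochondrial acyl-CoA thioesterase, was at 0.49 (SE 0.124, adjusted p = 0.0723) and Acss3, a propionate-activating synthetase, at 0.39 (SE 0.131), against Aacs, cytosolic acetoacetyl-CoA synthetase (-0.11), and Acss2, the cytosolic counterpart of Acss1 (0.17). Against saline, Acss3 (0.56, SE 0.132, adjusted p = 0.0405) and Acot9 (0.51, adjusted p = 0.0451) rose, and Aacs was at -0.35 and Acsf3 at 0.18 (median 0.18). Without saline replicate 2 the median was 0.17, and neither Acss3 (0.63, adjusted p = 0.0547) nor Acot9 (0.41, adjusted p = 0.0739) passed. Between Ang II and saline the median was 0.02, with Acss3 at 0.17 and Acss2 at 0.04 at the top and Aacs at -0.23 and Acsf3 at -0.07 at the bottom; without saline replicate 2 the median was -0.02.

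Among carriers and receptors no gene was called with all libraries. Bsg, basigin, the chaperone of MCT1 at the cell surface, was at 330.0, 363.7 and 384.7 CPM with Ang II+NaBu and at 265.6, 288.2 and 302.8 CPM with Ang II, with no overlap. Its log2 difference was 0.33 (SE 0.148, edgeR adjusted p = 0.218; 0.35 and adjusted p = 0.0464 without saline replicate 2). The related carriers Slc16a3 (-0.43, SE 0.3) and Slc16a7 (-0.01, SE 0.282) did not pass the test, and Slc16a7 was at 35.6, 12.6 and 23.2 CPM in the 3 Ang II+NaBu libraries. Of 5 tested genes 0 were called in any comparison with all libraries, with medians of 0.14 for Ang II against saline, 0.05 for Ang II+NaBu against Ang II and 0.20 for Ang II+NaBu against saline. These medians were -0.02, 0.07 and 0.33 without saline replicate 2, and Bsg was at -0.02 for Ang II against saline. The ends of the list were Cd36, a fatty acid transporter (0.34), and Bsg (0.14) against Slc16a3 (-0.29) and Slc16a7 (-0.29) for Ang II against saline. For Ang II+NaBu against saline they were Bsg (0.47) and Cd36 (0.39) against Slc16a3 (-0.71) and Slc16a7 (-0.30), and for Ang II+NaBu against Ang II Emb was second to Bsg at 0.06. The short-chain fatty acid receptor genes Ffar2 and Ffar3 reached at most 9 and 8 estimated counts in a library (0.236 and 0.213 CPM). Both are under the 12 assumed as the limit for a library at 0. The sodium-coupled carrier Slc5a8 was listed at 0 in all libraries.

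Genes of ketone synthesis and related enzymes formed the last list. Of its 7 tested genes 5 averaged higher with Ang II+NaBu than with Ang II (median 0.08), and 0 were called. Hmgcs1, the cytosolic synthase of the sterol pathway, was at 0.40 (SE 0.094, edgeR adjusted p = 0.0634), and Hmgcll1 (-0.56) and Bdh2 (0.02) stood at the bottom. Against saline, Hmgcs1 rose (0.41, SE 0.0942, edgeR adjusted p = 0.0379), while Hmgcll1 was at -0.13 (median 0.11). Hmgcs1 did not pass without saline replicate 2 (0.39, edgeR adjusted p = 0.0754), and the median was then 0.26. Between Ang II and saline the median was 0.04, with Hmgcs1 at 0.01, Bdh2 at 0.21 and Hmgcll1 at 0.42, and without saline replicate 2 the median was 0.20.

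**Figure D4:**
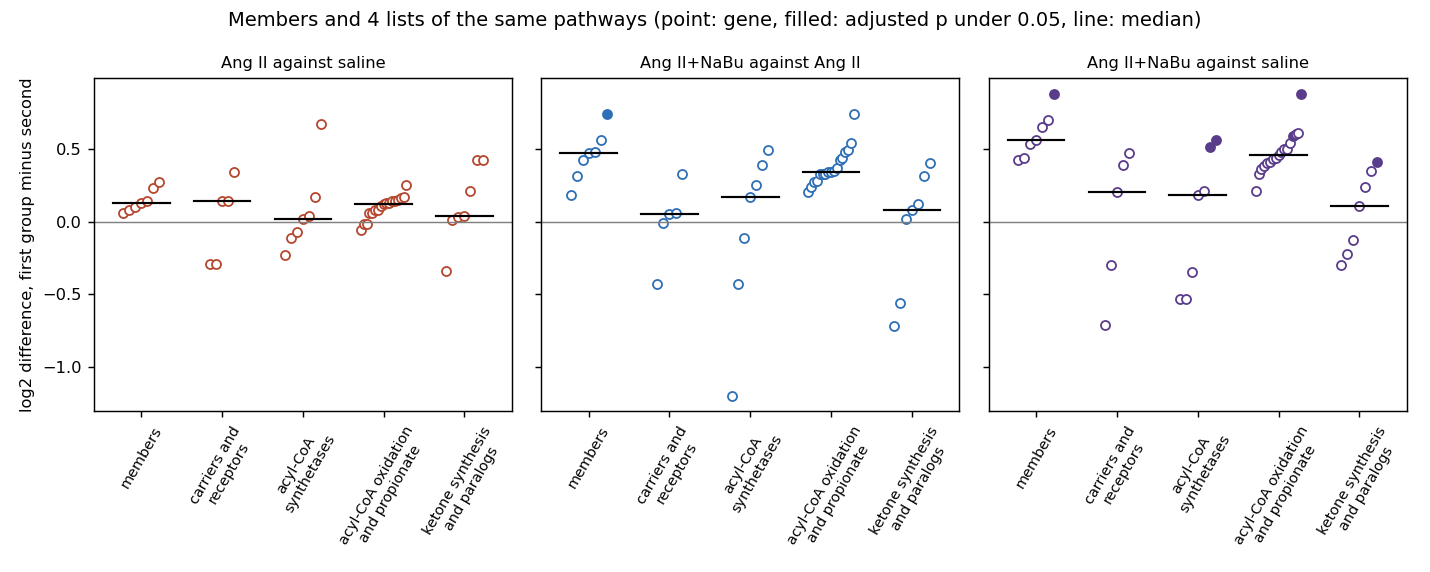
Log2 difference (vertical axes) of each tested gene in the 3 comparisons, for the 7 members and 4 lists of related pathways; filled points have an edgeR adjusted p under 0.05 and lines mark medians. In Ang II+NaBu against Ang II the members (median 0.47) and the acyl-CoA oxidation list (0.34) lie wholly above 0, while the other lists spread to both sides.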

How the data were processed

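RNA of 9 left ventricle samples was sequenced after Trizol extraction and Illumina library preparation, per the labels' protocols. The submitters' processing notes name Bowtie 0.12.2 and mm8, a mouse build, whereas the deposited IDs are rat RefSeq transcripts. The authors deposited the estimated counts per transcript as 1 table per group; the unit was read from the values, which are whole numbers with differing totals and show no normalization, and the headers give IDs and column names only. For the counting tool, annotation and strand setting the labels hold no statement. Paralogs and overlapping genes may therefore share reads. Each table holds 1 group, so any difference in processing and the group cannot be told apart. A stray line-end character in the saline table was stripped. Its deposited values are of the same kind. The Ang II+NaBu columns are numbered 2, 4 and 6, the labels 1 to 3, so these columns were mapped to the group only.

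Transcripts were summed by gene name and tested with edgeR 4.0.16 in R 4.3.3 (quasi-likelihood test, TMM, filterByExpr, all 3 groups in the fit, Benjamini-Hochberg over 15467 genes, threshold 0.05). The SE is the log2 difference over the root of the F statistic. Transcript lines were fitted alike. Alternatives used DESeq2 1.42.0, other scalings and filters, and fits without single libraries. The scripts were tested on simulated data. Members, lists and the naming rule (all members; called list genes and up to 2 at each end of a list with a mean of at least 1 CPM; 3 genes of like pattern per member) were chosen with earlier results of these data known. Some list genes that the naming rule selects are not reported here by name, but they stay in the counts and medians of their list.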

Additional observations from a re-analysis of the deposited data

How the results depend on the processing

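Between Ang II and saline, 0 members were called under each of 20 alternatives, but 12 values turned. Leaving out single libraries gave log2 differences of -0.07 to 0.47 for Slc16a1, -0.02 to 0.27 for Acsf2, -0.14 to 0.25 for Acads, -0.32 to 0.41 for Bdh1, -0.14 to 0.31 for Oxct1 and -0.12 to 0.21 for Acat1. The lowest value came without saline replicate 2 in each case; without Ang II replicate 3 Acads was at -0.01. Without saline replicates 2 and 3, which leaves 1 saline library that is assumed to vary like the other groups, Slc16a1 was at -0.15, Acads -0.14, Bdh1 -0.21, Oxct1 -0.10 and Acat1 -0.03. The cause was not tested.

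For Ang II+NaBu against Ang II, the count of members called was 1 as reported. It was 2 with DESeq2, 5 with only the 2 groups compared, 0 with total count scaling and 0 with the highest transcript per gene. Without single libraries it was 0 to 5, in fits where 1 to 968 of all genes rose. For Ang II+NaBu against saline the count was 5 with DESeq2, 2 with total count scaling, 0 with only the 2 groups compared and 0 with the highest transcript per gene. Without single libraries it was 0 to 2, in fits where 3 to 769 of all genes rose. In these 2 comparisons all 7 members stayed higher under every alternative run. Member transcripts called were 0 throughout.

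Over all genes, 100 rose and 148 fell between Ang II+NaBu and Ang II. The counts were 87 and 209 with upper-quartile scaling, 2 and 2 with total count scaling, 872 and 649 with DESeq2, 1082 and 720 with only the 2 groups compared, and 2 and 3 with the highest transcript per gene. Against saline, 465 rose and 317 fell, with 383 and 396, 287 and 124, 1240 and 767, 5 and 4, and 16 and 5 in the same order. Total count scaling moved the median of all genes to -0.133 and -0.109, where the members' medians were 0.36 and 0.57.

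With the replicate number as a replicate block, Ang II against saline gave 0 members called, with a median of 0.20. Same-numbered libraries had correlations of -0.004, -0.033 and 0.008 between their deviations. These show no pairing over all genes together, but cannot exclude one that touches only some genes. In the 2 comparisons with Ang II+NaBu no block could be fitted, since its columns share only the number 2 with the other groups. Counts of Acsm5, Ffar2 and Ffar3 were near or under the limit assumed for a count of 0, so low and absent expression cannot be told apart for them.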
